A study of Mus musculus with 6 samples.

Results

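Mmadhc and 9 further genes that handle vitamin B12 (cobalamin) were examined in fibroadipogenic progenitors (FAPs), mesenchymal cells of the muscle interstitium that can become fibroblasts or fat cells. The 10 genes cover uptake (Tcn2, Cd320), export from the lysosome (Lmbrd1), processing and targeting (Mmachc, Mmadhc), the mitochondrial enzyme branch (Mmaa, Mmab, Mmut) and the methionine synthase branch (Mtr, Mtrr). They are 10 of the 33276 genes in the deposited count table, and all 10 were among the 20248 genes that passed the filter on low counts. Mmadhc was picked because it was among the genes with the strongest fall in circulating FAPs in an earlier look at these same libraries, and the other 9 for their place in its pathway.

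RNA-seq libraries came from 3 samples of FAPs from peripheral blood and 3 of FAPs from muscle, all from mice labelled MCAO, the occlusion of the middle cerebral artery that models ischaemic stroke. Every sample carries that label, so no comparison with unoperated mice was made. The mouse strain background, age, time after occlusion and the markers used to isolate the cells are not given in the sources used here. The comparison asks how FAPs in the circulation differ from those resident in muscle.

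Cobalamin travels in plasma bound to transcobalamin, the product of Tcn2, and enters cells through the receptor CD320. Lysosomes release the vitamin, LMBRD1 helps it into the cytosol, MMACHC strips its upper ligand, and MMADHC binds MMACHC and steers cobalamin to its users. In mitochondria MMUT, which needs adenosylcobalamin made by MMAB and loaded with the help of MMAA, turns methylmalonyl-CoA into succinyl-CoA. In the cytosol MTR uses methylcobalamin to remake methionine from homocysteine, and MTRR reactivates it. Loss of MMADHC in people can impair either branch or both.

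Total counts ran from 5522193 to 13813329 in circulating and from 17532558 to 23424039 in muscle libraries. The 18S ribosomal RNA, whose reads stand under 2 symbols and are counted under both, took 42.9% to 60.1% of counts in circulating and 27.8% to 32.3% in muscle libraries. The summed level of 11 FAP markers, all detected, was 27087 to 29082 counts per 1000000 (CPM) in circulating and 59483 to 70326 CPM in muscle libraries. Of these markers 9 had a negative fold change, against 45.5% of all tested genes. For 7 every circulating library lay below every muscle library, against 11.4% of all tested genes. In edgeR 2 passed the test, Gsn and Smoc2, both lower, against 0.104% of all tested genes called lower. Dpp4 and Pi16, markers of early progenitors, were the only ones with positive log2 fold changes (2.26 and 1.47). They did not pass (edgeR adjusted p = 0.127 and 0.180), and the groups of Pi16 overlapped. The 12 leukocyte markers summed to 101 to 124 CPM in circulating and 18.04 to 35.9 CPM in muscle libraries. Much of this came from S100a9 in circulating replicate 1 (69.8 CPM) and S100a8 in circulating replicate 3 (61.4 CPM). Of the 10 that were tested, 0 had a negative fold change, against 45.5% of all tested genes. For 4 every circulating library lay above every muscle library, against 16.2% of all tested genes. None of the 12 was at 0 in every library, and none of the 10 that were tested passed. With the 18S symbols left out of the counts, the log2 fold change of Mmadhc was -4.37, beside -4.32 with them. Those of Mmut and Mmachc were -1.84 and 0.97, and no vitamin B12 gene of the set changed sign. Any further part of the 18S share, and the part of these markers, in the results on vitamin B12 genes was not tested. In such bulk samples, fewer cells of a type and less RNA per cell cannot be told apart.

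Mmadhc was the gene of the set with the widest gap between the groups. Its level, in CPM of the library size scaled by the trimmed mean of M values (TMM), was 3.72, 5.32 and 3.07 in circulating replicates 1, 2 and 3 and 97.9, 60.1 and 84.0 in muscle replicates 1, 2 and 3. Each of the circulating libraries therefore lay far below each of the muscle libraries, and the libraries within a group were close together. Of all tested genes 11.4% likewise had every circulating library below every muscle library. In reads, Mmadhc had 51, 40 and 28 in circulating and 1639, 1183 and 1718 in muscle libraries. The means were 4.04 ± 1.16 and 80.7 ± 19.1 CPM (SD, n = 3), a ratio of 19.97 in favour of muscle, and the fitted log2 fold change, circulating minus muscle, was -4.32 ± 0.61 (SE). This difference chose the gene, so it is given as a description without a test. Among 4736 tested genes with a mean of at least 20 CPM, Mmadhc had rank 6 counted from the lowest fold change.

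The fold change of Mmadhc stayed between -4.66 and -3.56 over 18 other settings. The gap between the groups chose the gene, so its adjusted p only describes how the call moves and is not read as evidence. Among the scalings, Mmadhc was not past the adjusted threshold with TMM on abundant genes (-3.56, edgeR adjusted p = 0.0882) or upper quartile scaling (-3.61, edgeR adjusted p = 0.0854). Nor was it past when circulating replicate 2 or 3 or any muscle library was left out (edgeR adjusted p from 0.0778 to 0.202). Without circulating replicate 1 the edgeR adjusted p was 0.0412.

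**Figure D1:**
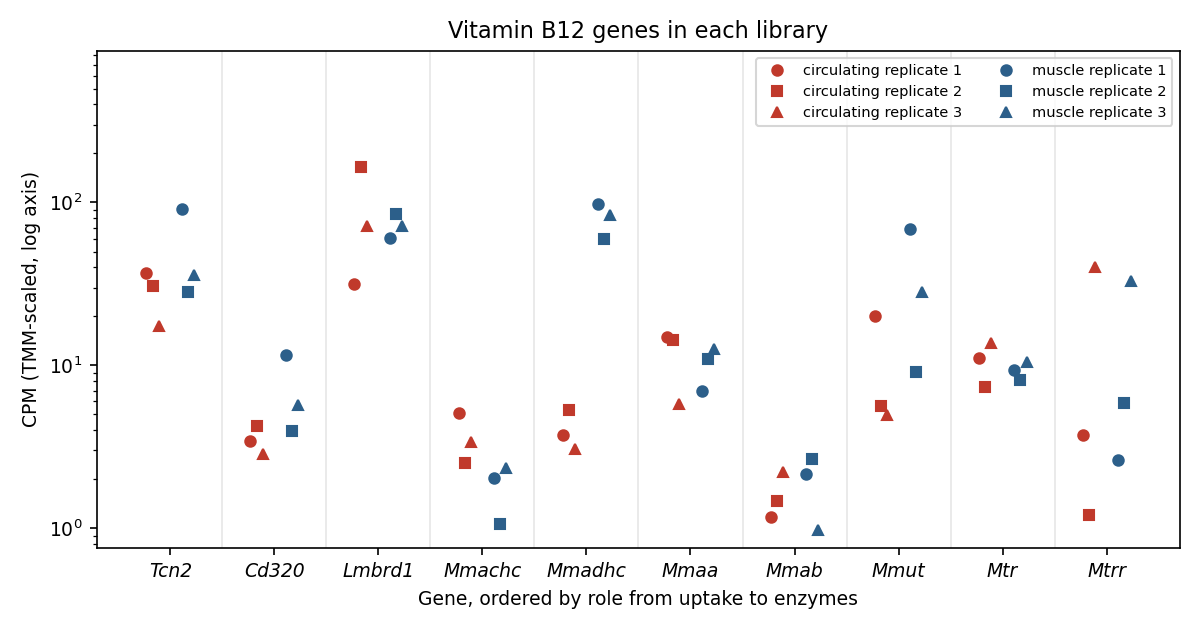
TMM-scaled CPM (log axis) of the 10 vitamin B12 genes in each of 3 circulating (red) and 3 muscle (blue) libraries, where each point is a library and its shape the replicate number. Mmadhc lies between 3.07 and 5.32 CPM in circulating and between 60.1 and 97.9 CPM in muscle libraries, while the groups of 8 other genes overlap and those of Mmachc lie close together without overlap.

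By the quasi-likelihood F test of edgeR with Benjamini-Hochberg adjustment over all tested genes, 1 of the 10 members was lower in circulating FAPs (Mmadhc) and 0 were higher. Over all genes 0.104% were called lower and 0.00494% higher, and since Mmadhc was chosen on this comparison nothing is read from its call. At an unadjusted p under 0.05 the count of the other 9 genes was 0, against 9.64% of all tested genes lower and 9.71% higher. With DESeq2 and limma voom it was 0 as well after adjustment. Over all genes DESeq2 called 10.3% lower and 1.16% higher, and limma voom 0.440% lower. A count of 0 among 9 genes is therefore not read as a result. Of the 10 members 5 had a negative log2 fold change, against 45.5% of all tested genes. The members' median log2 fold change was -0.07, and 0.12 without Mmadhc, beside 0.15 for all tested genes. With TMM computed on abundant genes the median of all genes shifted by 0.70, to 0.85, and that of the 9 genes was 0.89. Leaving out a library moved the median of the 9 others more than that of all genes. It was -0.66 beside 0.07 without circulating replicate 3, -0.28 beside 0.07 without circulating replicate 2 and -0.22 beside 0.21 without muscle replicate 1, and with limma voom -0.20 beside 0.12.

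Mmachc encodes the partner of MMADHC and was the only member whose circulating libraries were all above the muscle libraries. It was at 5.11, 2.53 and 3.40 CPM in circulating and 2.03, 1.07 and 2.35 CPM in muscle replicates 1, 2 and 3. The lowest circulating library exceeded the highest muscle library by a small margin, and 16.2% of all tested genes had the same arrangement. The log2 fold change was 1.02 ± 0.55 (SE) and did not pass (edgeR adjusted p = 0.321). Counts were low, between 19 and 70 reads a library. Over the other settings its fold change stayed positive, from 0.64 to 1.73. Mmadhc and Mmachc, whose products act as a pair, thus had fitted differences of opposite sign, of which that of Mmachc did not pass.

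The ratio between these partners can be read from levels per kilobase of exon, which allow genes to be compared. Mmadhc stood at 40.1 ± 9.52 CPM per kilobase in muscle against 0.816 ± 0.300 for Mmachc (SD, n = 3). In circulating FAPs they stood at 2.01 ± 0.575 and 1.65 ± 0.590 CPM per kilobase. In muscle libraries Mmadhc transcripts were far more abundant than those of Mmachc, and in circulating libraries the spreads of the pair overlapped.

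The start regions of Mmachc and Mtr are printed because, among 7 members with an entry in the RefSeq promoter table (GRCm38.p6), they alone hold the motif ACTACA followed, after any 2 bases, by TCCC. It is part of the sequence recognised by ZNF143 and THAP11, which act with the cofactor HCFC1 and are known regulators of MMACHC, and the levels of these factors are given further on. Both strands were searched, in windows from 250 bases before to 50 bases after the start. Capitals mark the match, which in Mmachc is the reverse complement of the motif at positions -24 to -13 from the start and in Mtr reads as written at positions -191 to -180. Of all 32851 windows of the same length, 1.81% hold a match. Mmadhc, Mmut and Tcn2 had no entry. The Mmachc window is chr4:116708336-116708635 and the Mtr window chr13:12258064-12258363, both on the minus strand and printed 5′ to 3′.
Mmachc: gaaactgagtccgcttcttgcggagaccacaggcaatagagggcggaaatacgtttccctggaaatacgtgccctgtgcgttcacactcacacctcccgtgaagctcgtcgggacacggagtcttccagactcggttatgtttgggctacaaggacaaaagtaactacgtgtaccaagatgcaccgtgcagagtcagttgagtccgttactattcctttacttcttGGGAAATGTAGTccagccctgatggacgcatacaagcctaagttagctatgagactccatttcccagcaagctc
Mtr: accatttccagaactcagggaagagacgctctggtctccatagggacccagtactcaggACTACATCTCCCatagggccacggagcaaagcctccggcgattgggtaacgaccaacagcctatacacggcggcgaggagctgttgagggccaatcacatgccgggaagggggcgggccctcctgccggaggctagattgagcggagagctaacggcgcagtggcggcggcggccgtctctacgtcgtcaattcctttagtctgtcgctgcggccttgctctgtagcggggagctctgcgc
A match of letters is a description of the window and does not show binding in these cells.

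Both uptake genes had overlapping groups and fold changes that did not pass and moved with muscle replicate 1. Tcn2, the plasma carrier, was at 36.9, 30.7 and 17.5 CPM in circulating and 91.6, 28.3 and 35.8 CPM in muscle replicates 1, 2 and 3. Muscle replicate 1 stood apart from the other two muscle libraries, which were within the circulating range. Its log2 fold change was -0.87 ± 0.64 (SE; edgeR adjusted p = 0.445). Cd320, the receptor for the carrier, was at 3.43, 4.26 and 2.85 CPM in circulating and 11.5, 3.96 and 5.67 CPM in muscle libraries, again with muscle replicate 1 the highest. Its log2 fold change was -1.004 ± 0.62 (adjusted p = 0.378). Without muscle replicate 1 the fold changes of Tcn2 and Cd320 were -0.23 and -0.51, and with TMM on abundant genes -0.13 and -0.24.

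Lmbrd1, which encodes the lysosomal membrane protein needed for cobalamin to leave the lysosome, was the most abundant member in circulating FAPs per kilobase of exon. It was at 31.6, 165 and 71.8 CPM in circulating and 60.8, 84.8 and 71.4 CPM in muscle replicates 1, 2 and 3. The muscle libraries were close together, whereas the highest circulating library was 5.24 times the lowest. The log2 fold change was 0.31 ± 0.60 (adjusted p = 0.782), and without circulating replicate 2 it was -0.56.

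In the mitochondrial branch no gene passed. Mmut, the mutase itself, was at 20.2, 5.59 and 4.94 CPM in circulating and 69.1, 9.14 and 28.3 CPM in muscle replicates 1, 2 and 3. Circulating replicate 1 exceeded muscle replicate 2, so the groups overlapped, and the muscle libraries differed 7.56-fold among themselves. Its log2 fold change of -1.79 ± 0.89 (SE) was the lowest after that of Mmadhc and did not pass (adjusted p = 0.293). It was -0.92 without muscle replicate 1 and -2.82 without circulating replicate 1. Mmaa, the chaperone that guards the loading of the mutase, was at 14.96, 14.4 and 5.82 CPM in circulating and 6.99, 11.0 and 12.5 CPM in muscle libraries (0.21 ± 0.66, adjusted p = 0.870). Mmab, the adenosyltransferase, was at 1.17, 1.46 and 2.20 CPM in circulating and 2.15, 2.64 and 0.978 CPM in muscle libraries (-0.26 ± 0.57, adjusted p = 0.805). For each of the pair the range of 1 group lay inside that of the other.

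In the methionine branch Mtr, the methionine synthase, was at 11.2, 7.32 and 13.7 CPM in circulating and 9.38, 8.07 and 10.5 CPM in muscle replicates 1, 2 and 3. The muscle range lay inside the circulating range, and the log2 fold change was 0.21 ± 0.61 (adjusted p = 0.859). Mtrr, the reductase that reactivates it, was at 3.72, 1.20 and 40.0 CPM in circulating and 2.63, 5.84 and 32.9 CPM in muscle libraries. In each group replicate 3 was far above the others, so that circulating libraries differed 33.4-fold and muscle libraries 12.5-fold, against a median of 2.58-fold and 2.55-fold for all tested genes. The log2 fold change of Mtrr was 0.12 ± 1.25 (adjusted p = 0.964), and without circulating replicate 3 it was -2.59. Fastkd3, which starts next to Mtrr on the opposite strand, was at 8.32, 2.13 and 2.53 CPM in circulating and 5.26, 1.83 and 16.7 CPM in muscle libraries, so it was high with Mtrr in muscle replicate 3 and not in circulating replicate 3.

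**Figure D2:**
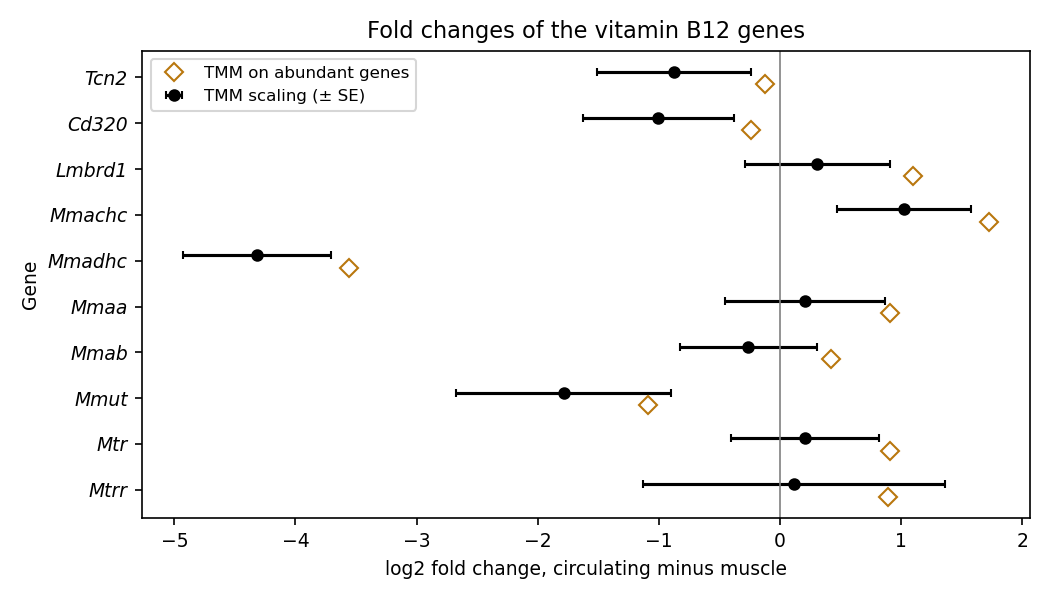
Log2 fold change, circulating minus muscle, of the 10 genes with TMM scaling (filled circles, bars ± SE) and with TMM computed on abundant genes (open diamonds). Mmadhc is at -4.32 and -3.56, Mmut is next at -1.79 with TMM scaling, and the diamonds lie to the right of the circles for all 10 genes.

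The order of the members per kilobase of exon changed between the groups. In muscle FAPs Mmadhc led at 40.1 CPM per kilobase, followed by Tcn2 (23.8 ± 15.9), Lmbrd1 (12.1 ± 2.02) and Mmut (9.38 ± 8.08). Neighbours in the muscle order overlapped in each case, Mmadhc and Tcn2 included. In circulating FAPs Lmbrd1 (15.04 ± 11.5) and Tcn2 (13.0 ± 4.55) led, and Mmadhc came at place 5. There the ranges of Tcn2 and the next gene, Mtrr (2.88 ± 4.17), did not overlap, nor did those of Cd320 (1.22 ± 0.245) and Mmab (0.438 ± 0.144), while every other pair of neighbours did. Mmab was the lowest member per kilobase in both groups.

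Within each group Mmadhc took a steady share of the reads assigned to the 10 genes. The share was 27.7%, 28.0% and 29.5% in muscle replicates 1, 2 and 3 and 2.82%, 2.23% and 1.86% in circulating replicates 1, 2 and 3. No scaling between libraries enters this share. It restates the gap between the groups that chose Mmadhc, so it is given as a description. The 9 other genes together summed to 128, 233 and 162 CPM in circulating and 256, 155 and 200 CPM in muscle libraries, with overlapping groups.

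Low levels were set against a background taken from 404 receptor genes of smell and taste (vomeronasal, taste and trace amine receptors) that most other tissues do not express. Their median was 0.466, 0.497 and 0.408 CPM per kilobase in circulating and 0.258, 0.278 and 0.212 in muscle replicates 1, 2 and 3, higher in every circulating library. Mmadhc was 3.97, 5.33 and 3.75 times this background in circulating and 189, 107 and 197 times in muscle libraries. Mmachc was 4.93, 2.29 and 3.75 times in circulating and 3.54, 1.72 and 4.99 times in muscle libraries, so that its groups overlapped on this scale. Mmab was 0.683, 0.803 and 1.47 times in circulating and 2.27, 2.59 and 1.26 times in muscle libraries. Mmab was thus near the level of silent genes, and Mmadhc in circulating FAPs was only a few times above it. Mtrr was near that level too in circulating replicates 1 and 2 (1.54 and 0.464 times) and muscle replicate 1 (1.96 times). Cd320 was at 2.55, 2.97 and 2.43 times and Mtr at 2.81, 1.73 and 3.95 times in circulating replicates 1, 2 and 3.

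**Figure D3:**
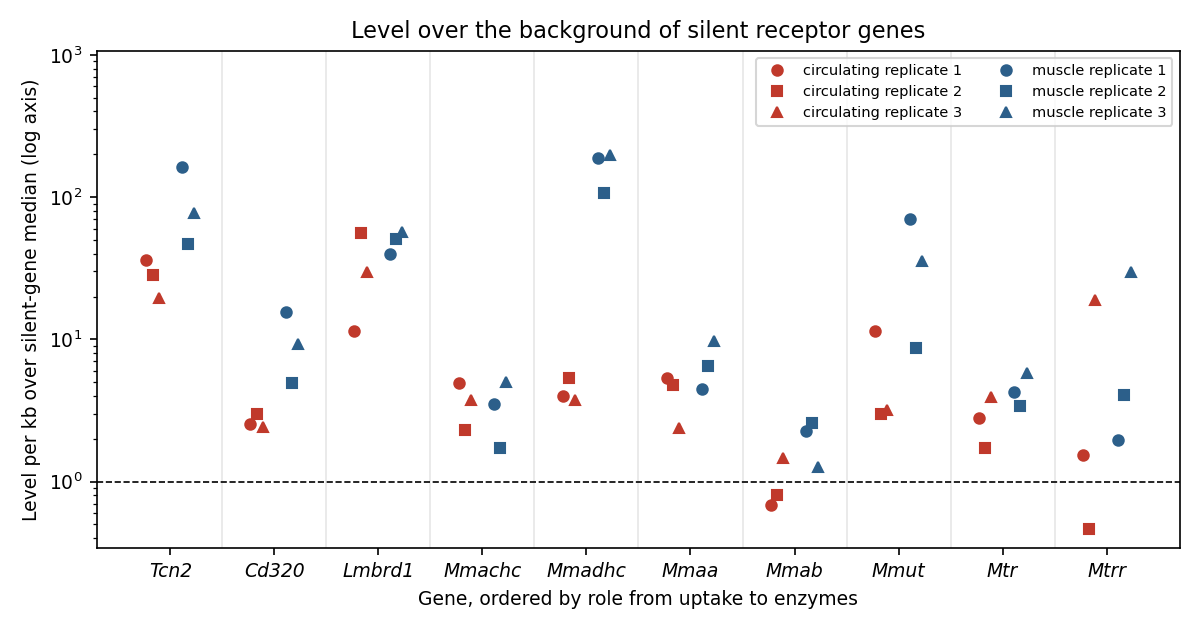
Level per kilobase of exon of each gene divided by the median of silent receptor genes in the same library (log axis; dashed line at 1), for 3 circulating (red) and 3 muscle (blue) libraries. Mmadhc is 107 to 197 times background in muscle and 3.75 to 5.33 times in circulating libraries, and Mmab lies around the line.

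Genes of the adjoining pathways were read from 5 lists with 55 genes, of which 53 were tested. In edgeR 0 were lower and 0 higher after adjustment, against 0.104% and 0.00494% of all tested genes. At an unadjusted p under 0.05, 9 were lower and 5 higher, against 9.64% and 9.71% of all tested genes. With DESeq2 7 were lower and 0 higher, against 10.3% and 1.16% of all genes, and with limma voom 1 was lower, against 0.440% of all genes. The median log2 fold change of the 53 genes was -0.26, beside 0.15 for all tested genes.

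Other uptake and transport genes had 6 members, all tested and all with a positive fold change (median 0.72). Of all tested genes 45.5% had a negative fold change, and their median was 0.15. TMM on abundant genes raised the median of all genes to 0.85 and that of the list to 1.42, so it does not probe positive signs. Signs did turn for Abcd4 with DESeq2 (-0.042) and for Abcc1 without circulating replicate 1 (-0.22). Tested genes under 2 CPM had a median of 0.77. Amn and Cblif lay under that level, at means of 1.005 and 1.79 CPM, and the others lay above it, up to 24.4 CPM for Abcc1. The part of low levels in the positive signs was not tested. The most abundant were Abcc1, an exporter that can carry cobalamin out of cells (0.30 ± 0.68, SE; edgeR adjusted p = 0.814), and Abcd4, the lysosomal transporter that works with LMBRD1 (0.14 ± 0.65, adjusted p = 0.911). Cblif, the intrinsic factor of the stomach, was chosen after its values were seen. It was at 2.85, 2.79 and 2.53 CPM in circulating and 0.538, 0.914 and 1.12 CPM in muscle libraries and did not pass (adjusted p = 0.178).

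The 3 regulators of Mmachc had negative fold changes, as did 45.5% of all tested genes, and none passed in edgeR. With TMM on abundant genes, which raised the median of all genes to 0.85, 2 of 3 stayed negative. Hcfc1, the cofactor, was at 19.6, 5.86 and 7.69 CPM in circulating and 24.0, 17.3 and 17.7 CPM in muscle libraries (-0.83 ± 0.69, adjusted p = 0.497). Zfp143, the mouse ZNF143 gene, had -0.65 ± 0.91 (adjusted p = 0.694). Thap11, named after its values were seen, was at 1.46, 2.13 and 3.29 CPM in circulating and 5.50, 22.5 and 17.2 CPM in muscle libraries, without overlap. Its log2 fold change was -2.71 ± 0.76 (edgeR adjusted p = 0.158; DESeq2 adjusted p = 0.00186). Of the pair with the printed motif, Mmachc and Mtr, neither passed in any of these tools.

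The propionate and methylmalonyl-CoA list leads into and out of the mutase step. It had 14 tested members of 15, of which 12 had a negative fold change, against 45.5% of all tested genes. The median was -1.33, beside 0.15 for all genes and -0.65 for tested genes of at least 20 CPM. With TMM on abundant genes 10 of the 14 were negative and the median was -0.53 beside 0.85 for all genes. Pccb, a subunit of propionyl-CoA carboxylase, was at 46.3, 22.5 and 20.5 CPM in circulating and 90.1, 46.9 and 48.4 CPM in muscle libraries (-1.05 ± 0.58, adjusted p = 0.331). Hibadh, an enzyme of valine breakdown, had -1.69 ± 0.70 (adjusted p = 0.230). Mcee, the epimerase just before the mutase, was named after its values were seen. It was at 9.56, 6.39 and 1.76 CPM in circulating and 108, 23.4 and 16.7 CPM in muscle libraries (-3.06 ± 0.94; edgeR adjusted p = 0.175, DESeq2 adjusted p = 0.00396). Aldh6a1 and Dbt, also enzymes of amino acid breakdown, were further members called lower by DESeq2 (adjusted p = 0.0269 and 0.0418). DESeq2 called 10.3% of all genes lower, and in edgeR neither passed (adjusted p = 0.210 and 0.227).

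The methionine cycle and transsulfuration list had 12 tested members with a median of -0.04, 7 of them negative. All tested genes had a median of 0.15, and 45.5% of them were negative. With TMM on abundant genes the list had a median of 0.74 and 3 negative, beside a median of 0.85 for all genes. Mat2a, which makes S-adenosylmethionine, was at 239, 123 and 49.96 CPM in circulating and 439, 244 and 339 CPM in muscle libraries. Its highest circulating library lay just under its lowest muscle library, and the difference did not pass (-1.31 ± 0.54, adjusted p = 0.229). Ahcyl1, related to the enzyme that splits S-adenosylhomocysteine, had -0.65 ± 0.47 (adjusted p = 0.442). Mtap, which salvages methionine, was the member called lower by DESeq2 (-2.41 ± 0.75 in edgeR, adjusted p = 0.178; DESeq2 adjusted p = 0.00505).

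The folate list had 18 tested members of 19 with a median of -0.25, 12 of them negative, beside 0.15 and 45.5% for all tested genes. With TMM on abundant genes the list had a median of 0.45 and 4 negative, beside a median of 0.85 for all genes. Ggh, which trims folate tails, was at 45.5, 13.2 and 34.7 CPM in circulating and 17.5, 22.2 and 94.9 CPM in muscle libraries (-0.53 ± 0.78, adjusted p = 0.710). Shmt2, the mitochondrial serine hydroxymethyltransferase, named after its values were seen, had the lowest adjusted p of the 53 genes. It was at 1.53, 1.60 and 1.98 CPM in circulating and 16.6, 17.6 and 12.3 CPM in muscle libraries, with no overlap and little spread. Its log2 fold change was -3.18 ± 0.65 (edgeR adjusted p = 0.0909; DESeq2 adjusted p = 6.65e-07; limma voom adjusted p = 0.0423). Mthfd2, which acts next to it in mitochondria, was also called lower by DESeq2 (-1.43 ± 0.63 in edgeR, adjusted p = 0.247).

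**Figure D4:**
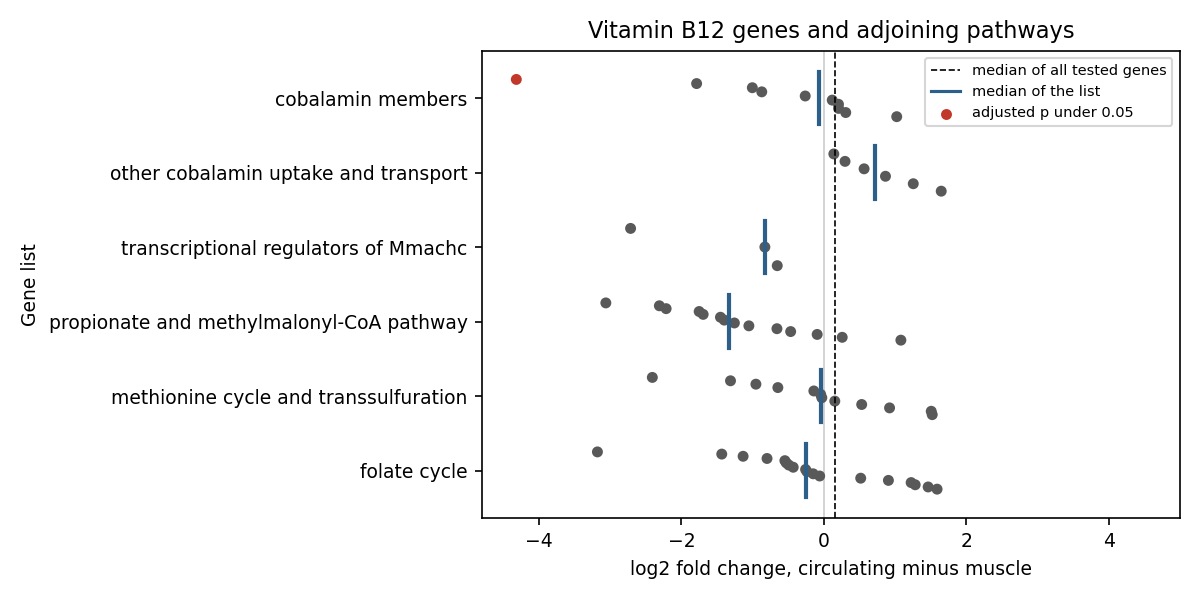
Log2 fold change, circulating minus muscle, of each tested gene in the vitamin B12 set and 5 adjoining lists (points; red where the adjusted p is under 0.05), with the median of each list (blue bar) and of all tested genes (dashed line at 0.15). Mmadhc is the only red point, and the propionate and methylmalonyl-CoA list has the lowest median, -1.33.

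The genes nearest to Mmadhc in pattern over the 6 libraries were sought among 4684 tested genes with a mean of at least 20 CPM. The measure was the root mean square difference of log2(CPM + 1) after centring each gene on its own mean. Nearest was Ifit3, an interferon-induced gene, at 0.207, followed by Clec11a, a secreted growth factor (0.3501), Mgp, the matrix Gla protein (0.379), Aoc3, a surface amine oxidase (0.435), and Plk2, a polo-like kinase (0.438). The median over all compared genes was 1.79. Ifit3 was at 2.85, 6.52 and 2.31 CPM in circulating and 79.5, 61.3 and 73.9 CPM in muscle replicates 1, 2 and 3. It followed Mmadhc in each library, with circulating replicate 2 the highest of its group and muscle replicate 2 the lowest. Among the other vitamin B12 genes Mmut was the nearest at 1.51, and 1101 of the compared genes were nearer than it. The likeness rests mostly on the gap between the groups, for which Mmadhc was chosen.

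**Figure D5:**
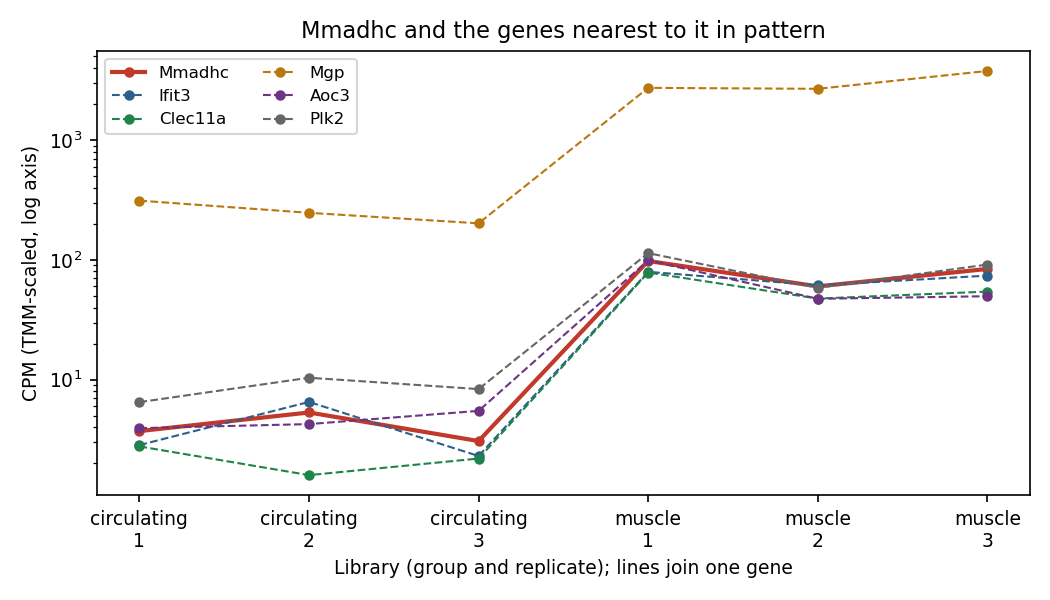
TMM-scaled CPM (log axis) of Mmadhc and the 5 genes nearest to it in pattern in each library; each line joins the values of a gene. All 6 genes are low in the 3 circulating and high in the 3 muscle libraries, with Mgp at a higher level throughout.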

How the data were processed

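The authors deposited raw read counts per gene symbol, in 1 column per sample (3 circulating, 3 muscle). Reads were trimmed (Trim Galore), aligned (STAR) and counted (featureCounts) on build GRCm39, per the submitters' processing notes. Versions, options, strand setting and annotation are not given in the sources used here. Per the labels, libraries were made with a transposase kit.

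The members and lists were chosen with earlier results of these data known. Counts were tested with edgeR 4.0.16 in R 4.3.3 (quasi-likelihood F test, robust, TMM, filterByExpr), with Benjamini-Hochberg adjustment over 20248 genes and a threshold of 0.05. SE is the fold change over the root of F. DESeq2 1.42.0 and limma 3.58.1 were alternatives. Of these steps, only the main edgeR fit was run on simulated data, with changes set only in genes with a mean of at least 20 CPM. Its rate of recovery is not reported here. Replicates differed far beyond sampling noise (chi-square per degree of freedom 56.1 to 85.4). The labels do not say that samples came from separate mice, and p-values then reflect only how far these samples vary, possibly for technical reasons. Exon lengths came from GENCODE M21 (GRCm38), matched for 92.8% of symbols (Mmut as Mut). The only coordinates given are those of the printed start regions, which are on GRCm38.p6 and not on the build of the counts. Besides the 10 members, the rule named from each pathway list up to 3 genes past the threshold, or else the 2 most abundant, and the 5 genes nearest to Mmadhc, leaving out predicted models. Of the genes so named, 1 is not reported here.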

Additional observations from a re-analysis of the deposited data

How the results depend on the processing

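All 18 alternatives were run. Mmadhc kept its direction in each; with upper quartile scaling (-3.61), TMM on abundant genes (-3.56) and the replicate block (-4.33, adjusted p = 0.107 in edgeR) it lost its call, and it ranged from -4.66 to -4.21 when each library was left out. The count of members lower, 1, became 0 in those 3 settings and ranged from 0 to 1 over the libraries left out, and no setting called a member higher. Of all genes, 21 were lower and 1 higher. Lower genes became 42 with RLE size factors, 1 with upper quartile scaling, 4 with TMM on abundant genes, 154 with no filter, 1387 with DESeq2, 89 with limma voom, 1 with the replicate block and 0 to 63 over the libraries left out. Higher genes became 2 with library size scaling, 3 with TMM on abundant genes, 6 with no filter, 156 with DESeq2, 2 with limma voom, 0 with the replicate block and 0 to 2 over the libraries left out. Pathway genes lower went from 0 to 7 with DESeq2 and 1 with limma voom. Fewer samples enter when a library is left out; otherwise the cause was not tested.

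Of 20 genes followed, 10 kept their direction throughout, and none but Mmadhc was called in any setting. Signs turned with no filter for Mmaa (-0.026), Mtr (-0.016), Mtrr (-0.10) and Abcd4 (-0.090); with DESeq2 for Mtrr (-0.052) and Abcd4 (-0.042); with limma voom for Lmbrd1 (-0.10) and Mtrr (-0.49); and with the replicate block for Mtrr (-0.40). They turned with upper quartile scaling and with TMM on abundant genes for Mmab (0.39 and 0.42), Zfp143 (0.069 and 0.13), Ahcyl1 (0.0185 and 0.046) and Ggh (0.19 and 0.17). Over the libraries left out the values ran, with a change of sign, for Lmbrd1 from -0.56 to 0.65, for Mmaa from -0.077 to 0.42, for Mtr from -0.13 to 0.33, for Mtrr from -2.59 to 1.77, for Abcc1 from -0.22 to 0.80, for Abcd4 from -0.18 to 0.66, for Zfp143 from -1.99 to 0.24, for Ggh from -0.98 to 0.60.

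Replicate numbers recur in both groups without a label that ties a number to a mouse, and deviations of same-numbered samples correlated at 0.0095, 0.0553 and 0.0070; circulating replicates 1 and 3 correlated best with another number. The lowest count of a member was 9 reads, for Mtrr in circulating replicate 2, so depth limits such low genes.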
